A study of Bos taurus with 8 samples.

Results

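Stromal progenitor surface markers are proteins of the plasma membrane, or secreted from it, by which connective tissue and adipose progenitor cells are recognized and sorted. The 10 genes *CD34*, *THY1*, *PI16*, *CD55*, *DPP4*, *NT5E*, *CD44*, *ENG*, *ALCAM* and *CD9* were chosen by name for that use. Of these 10 genes, 9 were measured among the 18871 genes of the count table, and all 9 were among the 18339 genes tested, while *DPP4* is not analysed here. The genes were described across 8 bovine preadipocyte clones, 4 from intramuscular fat (IMF) and 4 from subcutaneous fat (SF).

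Each clone had been grown by limiting dilution from a single cell of the stromal vascular fraction, the cells left once fat tissue is digested and its adipocytes are removed. The tissue came from adult male Angus-cross steers, with IMF dissected out of the longissimus dorsi muscle, and clones of both groups were expanded in growth medium. Each clone of a group came from a different stromal vascular fraction sample, but the sources used here do not say which of them came from the same steer. The sources differ on the number of steers, but by either number it is below the 8 clones, so some steers gave more than 1 clone. The study's methods place RNA collection before confluence and before adipogenic induction, whereas the design text of the series places induction first, and the methods were followed. Each group is 4 clones picked for relatively strong adipocyte formation and fast growth, and for a fibroblast-like shape. Values given here are therefore those of picked clones, not of all stromal cells of a depot. RNA was sequenced, and the reads counted on genes numbered 19654917, 29308882, 20154941 and 20693899 in IMF1 to IMF4. The SF clones had 20482958, 19979899, 24868233 and 21034462 counted reads in the same order of clone number.

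As background, adipose stroma holds progenitors at different stages. In mouse and human fat, an uncommitted progenitor in the connective tissue sheets carries *DPP4*, *PI16* and *CD55*, and cells closer to adipocytes lose these markers. *NT5E*, *THY1* and *ENG* are the positive surface proteins by which cultured mesenchymal stromal cells are defined, with *CD44* and *ALCAM* often added, whereas *CD34* marks adipose stromal cells in tissue and is usually lost in culture. *CD34* is also carried by blood vessel endothelium, hematopoietic progenitors and muscle satellite cells.

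Levels are given as CPM, the count relative to the library size after trimmed mean of M values (TMM) scaling, and as TPM where genes are compared with each other, since TPM also divides by gene length. A gene was past the threshold when edgeR's quasi-likelihood test, 2-sided and with Benjamini-Hochberg adjustment over the 18339 genes, gave an adjusted p under 0.05 and the log2 fold change of IMF against SF was at least 1 in either direction. Of the 9 marker genes, 5 were past the threshold, against 8.82% of all genes tested. The marker genes were chosen with earlier results of these data known, so this comparison is a description and not a test. *CD34* and *CD55* were higher in the IMF clones (2 of 9, against 4.78% of all genes), and *THY1*, *PI16* and *ALCAM* were lower (3 of 9, against 4.04%). *NT5E*, *CD44*, *ENG* and *CD9* were not past it. These p-values measure only the spread between the clones sequenced. Within a group that spread holds differences between stromal vascular fraction samples as well as between clones, which cannot be told apart. Which IMF and SF clones share a steer is not stated, so the main fit used no pairing. The 4 IMF and 4 SF clones did not overlap in CPM in 5 of the 9 genes, the same 5, where 32.1% of all genes tested did not overlap. The median log2 fold change was -0.16 over the 9 genes (from -0.35 without SF1 to 0.02 without SF2) and -0.03 over all genes tested.

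Scaling by total counts alone, without TMM factors, moved the median of all genes from -0.03 to 0.12, and the genes past the threshold from 877 higher and 741 lower (54.2% higher) to 1078 higher and 539 lower (66.7% higher). The majority was lower with DESeq2 (977 higher, 1019 lower) and in the edgeR fit without IMF1 (806 higher, 832 lower). *THY1* and *PI16* were not past the threshold with total counts alone.

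**Figure D1:**
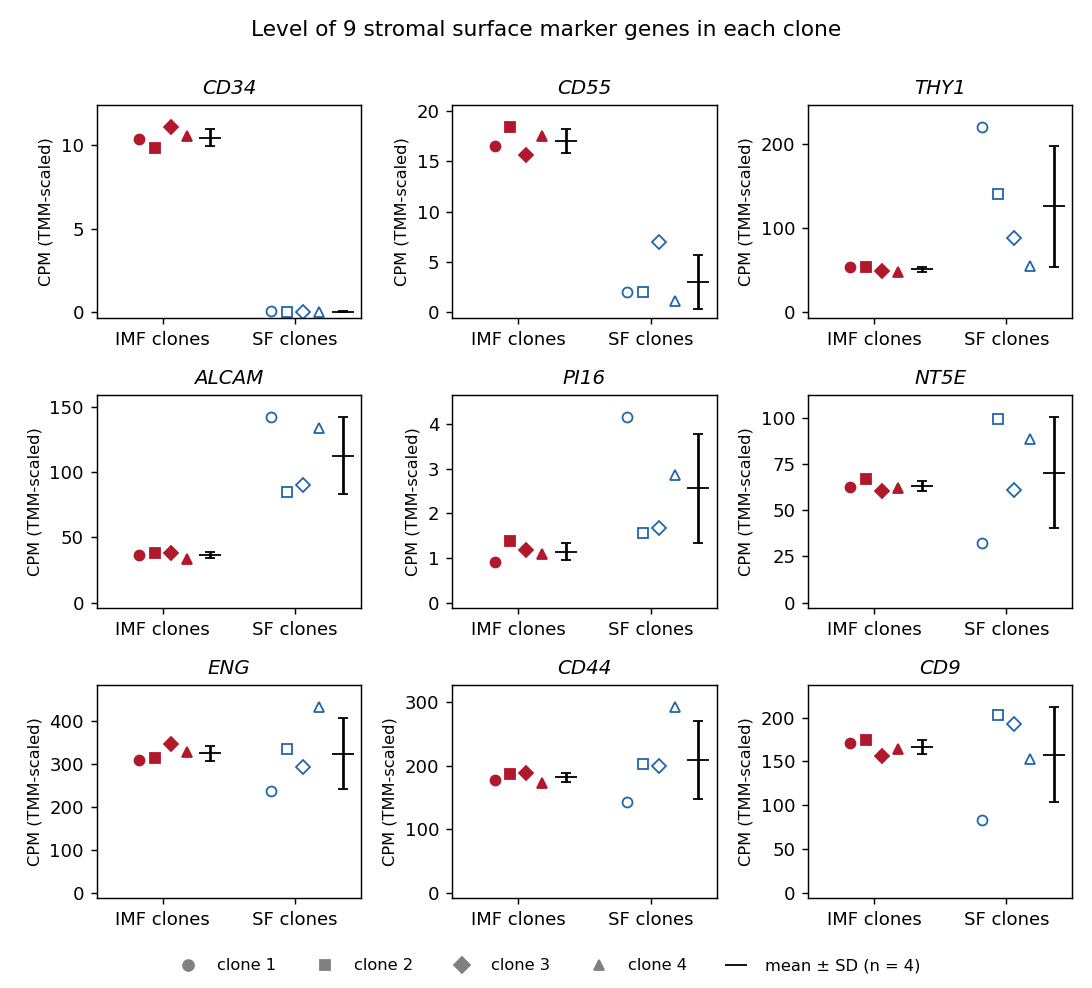
CPM (vertical axes, from 0, 1 panel per gene) of 9 surface marker genes in each of 4 IMF clones (filled symbols) and 4 SF clones (open symbols), with the symbol shape giving the clone number and the black bar the mean ± SD of 4 clones. The SF clones are at or near 0 for *CD34*, all lie under the IMF clones for *CD55*, where SF3 is highest at 7.02 CPM, and spread from 54.7 to 220.0 CPM for *THY1*, against 48.0 to 54.1 CPM in the IMF clones.

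*CD34* (chromosome 16, 75466180 to 75489273 in ARS-UCD2.0) encodes a sialomucin, a heavily glycosylated membrane protein with roles in adhesion. It had 10.4, 9.84, 11.1 and 10.6 CPM in IMF1 to IMF4, from 216, 301, 245 and 222 counts. In SF1 to SF4 it had 2, 1, 1 and 0 counts, or 0.103, 0.0501, 0.0406 and 0 CPM. The IMF clones were nearly level with each other, every SF clone lay under the limit of 3 counts, which equals 0.122 to 0.165 CPM in these clones, and the groups were far apart. The mean ± SD over 4 clones was 10.5 ± 0.522 CPM for IMF and 0.0483 ± 0.0422 for SF. From the summed counts, 984 against 4, the IMF clones were 214-fold higher with an exact 95% interval of 83.4 to 787, which covers counting error only. The log2 fold change in edgeR's quasi-likelihood test was 7.59 (standard error 0.37, adjusted p = 6.51e-06), and 6.25 with a prior count of 2, since so few SF counts leave the size to the prior. In bulk RNA, fewer cells of a type and less RNA per cell cannot be told apart.

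The list of sialomucins related to *CD34*, of selectins that bind such proteins and of *CRKL*, an adaptor inside the cell that binds *CD34*, differed in both directions. Of its 7 genes, IMF was higher in 4 and lower in 2 (*CRKL* was not past the threshold, at -0.08), with a median log2 fold change of 7.75, or 5.54 with genes at 0 in all SF clones set to their bound, against -0.03 over all genes. *SELP*, the P-selectin of platelets and endothelium, had 3126 or more counts per IMF clone (4329 in IMF2) and 1 count over all SF clones, a ratio of 12112 with a counting interval of 2173.5 to 478430. *PODXL*, podocalyxin, had 7.25 ± 0.496 TPM in IMF and 0.0299 ± 0.0253 in SF, for a log2 fold change of 7.75 (standard error 0.36, edgeR adjusted p = 5.4e-06). *EMCN*, endomucin, had 0 counts in all 4 SF clones and was at least 46.6-fold higher in IMF, measured against 3 counts in each SF clone. *CD164*, endolyn, was the most abundant gene of the list in both groups and was lower in IMF (112 ± 8.93 against 231 ± 32.7 TPM, log2 fold change -1.07, standard error 0.10, adjusted p = 0.000198), and *PODXL2* was lower too (log2 fold change -1.52). With total counts alone *CD164* was not past the threshold.

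Markers of 2 other cell types that carry *CD34* moved with it. Of 15 endothelial genes tested, 14 were higher in IMF, with a median log2 fold change of 6.35 (7.23 without SF3), or 5.54 with genes at their bound. Summed over the list, the level was 147, 151, 163 and 175 TPM in IMF1 to IMF4 and 48.4, 46.0, 36.5 and 41.8 TPM in SF1 to SF4. The most abundant gene in both groups was *CLDN5*, a tight junction gene, which was the gene not past the threshold and made up 93.9% of the SF sum. Its 8 counts were all even numbers, as in 2.98% of the genes that averaged 20 or more counts. That share is above the 0.391% there would be if even and odd counts were equally likely, the reason is not known, and the counts of such genes are therefore less certain. The defining endothelial genes *KDR* and *CD93* had 0 counts in every SF clone and were at least 82.2-fold and at least 138-fold higher in IMF, while *CDH5* had 3 or 4 counts per SF clone beside 1086 to 1693 per IMF clone. *EGFL7*, a secreted endothelial factor, had 35.3 ± 1.67 TPM in IMF and 1.21 ± 0.66 TPM in SF. *SOX17* lost its call without any 1 IMF clone and without SF2 or SF4 (adjusted p up to 0.199 over its alternatives).

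Of 11 listed genes of satellite cells and myoblasts, 9 were tested. All 9 were higher in IMF, with a median log2 fold change of 7.77 (8.63 without SF4), or 6.96 with genes at their bound. Their summed level was 485, 406, 490.0 and 377 TPM in IMF1 to IMF4 and 22.8, 7.43, 9.38 and 30.3 TPM in SF1 to SF4. *MYOD1*, the myogenic transcription factor and the most abundant of them in IMF, had 145 ± 21.6 TPM there and 0 counts in every SF clone, at least 1098-fold higher. *MYOG* and *CHRNA1* were also at 0 in every SF clone, and *DES*, the muscle intermediate filament gene, was the most abundant in SF at 8.46 ± 6.86 TPM. *DES* lost its call without IMF1, IMF2, IMF3, IMF4 or SF3 (adjusted p up to 0.225 over its alternatives). The part of endothelial or myogenic gene expression in the *CD34* difference was not tested.

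In the panel of markers that define mesenchymal stromal cells by their absence, 2 of the 6 genes tested were higher in IMF, 0 were lower, and their median log2 fold change came to -0.61. The higher genes were *CD34* and *CD14*, the monocyte coreceptor for bacterial lipopolysaccharide, which had 3.34 ± 0.451 TPM in IMF and 1.21 ± 0.453 in SF, for a log2 fold change of 1.48 (standard error 0.24, edgeR adjusted p = 0.0026). *PTPRC*, the pan-leukocyte phosphatase, had 401, 58, 157 and 220 counts in IMF1 to IMF4, beside 967, 540, 612 and 575 in SF1 to SF4. Every SF clone thus had more *PTPRC* counts than any IMF clone, but the test missed the threshold (log2 fold change -1.79, standard error 0.58, edgeR adjusted p = 0.0518). *PTPRC* was past the threshold in 5 of 19 alternatives, namely DESeq2, limma-voom, the fit blocked on clone number and the fits without IMF1 or IMF2. Without IMF4 another gene of the panel was called lower. The panel's median ran from -1.12 without IMF4 to -0.29 without SF1. *ITGAM* and *CD79A* overlapped between the groups. The wider list of 9 hematopoietic genes summed to 45.0, 42.6, 43.0 and 66.2 TPM in the IMF clones and to 87.8, 63.8, 56.8 and 103 TPM in the SF clones, with *TYROBP* the most abundant in both and a median log2 fold change of -0.70. Without IMF4, edgeR called 3 of these genes lower at a median of -1.16, and DESeq2 and limma-voom each called 2 higher and 2 lower. In that list, *CD14* was higher and *CD3E*, a T cell receptor chain, was lower in IMF, and *CD3E* lost its call in the fits without IMF1, IMF2, IMF3, SF1, SF2 or SF4 (adjusted p up to 0.951 over its alternatives).

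*PI16* (chromosome 23, 10861191 to 10875379) encodes peptidase inhibitor 16, a secreted or membrane-tethered protein that marks fibroblasts of the outer connective tissue. It was the least abundant of the 9 genes in the IMF clones, at 0.912, 1.37, 1.18 and 1.09 CPM from 19, 42, 26 and 23 counts. In SF1 to SF4 it had 4.16, 1.55, 1.66 and 2.87 CPM, from 81, 31, 41 and 52 counts. Every SF clone was above every IMF clone, with SF1 and SF4 the highest and SF2 only a little above IMF2. The log2 fold change was -1.16 (standard error 0.36, 95% interval -1.99 to -0.33, edgeR adjusted p = 0.0471, over a range of 0.0150 to 1 in its alternatives), from means ± SD over 4 clones of 1.14 ± 0.192 CPM for IMF and 2.56 ± 1.22 for SF. The call was lost when IMF1, IMF2, IMF3, IMF4, SF1 or SF4 was left out (adjusted p 0.107, 0.0719, 0.0937, 0.100, 0.0966 and 0.100; log2 fold change -0.82 without SF1), and also with limma-voom (0.103), with total counts alone (0.0710), in a fit blocked by clone number (0.140) and in glmTreat's test of a change beyond the fold threshold (adjusted p of 1).

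*CD55* (chromosome 16, 5250713 to 5279400) encodes decay-accelerating factor, a lipid-anchored protein that protects cells from complement. It went the other way from *PI16*, at 16.6, 18.4, 15.6 and 17.5 CPM in IMF1 to IMF4 and 2.00, 2.05, 7.02 and 1.16 CPM in SF1 to SF4. All IMF clones lay close together and above all SF clones, among which SF3, with 173 counts against 39, 41 and 21, stood above the others. The means ± SD over 4 clones were 17.0 ± 1.21 CPM for IMF and 3.06 ± 2.67 for SF, and the fitted edgeR estimate was 5.47-fold (log2 fold change 2.45, standard error 0.49, 95% interval 1.33 to 3.57, edgeR adjusted p = 0.00757). Without SF3 the log2 fold change was 3.25 (adjusted p = 0.000112), and in glmTreat's test of a change beyond the fold threshold the call was lost (adjusted p = 0.0888), the highest of a range that starts at 1.11e-05.

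Other genes of the *PI16* and *DPP4* fibroblast program, mostly of the extracellular matrix, were divided between the groups. Of 22 tested, 3 were higher and 7 lower in IMF, with a median log2 fold change of -0.40 (from -0.53 without IMF4 to -0.26 without SF2) against -0.03 over all genes. Total counts alone gave 5 higher and 7 lower, and limma-voom gave 4 higher and 7 lower. The lower genes included *SFRP2*, a secreted Wnt modulator (382 ± 29.6 against 884 ± 339 TPM), *GSN*, the actin-severing protein gelsolin (149 ± 13.1 against 701 ± 317 TPM), and *COL14A1*, a collagen of the fibril surface (39.4 ± 2.27 against 104 ± 46.1 TPM). Also lower were *SEMA3C*, a secreted semaphorin (31.5 ± 2.1 against 113 ± 22.2 TPM), whose 8 counts were all even, and *MFAP5*, a microfibril gene (42.2 ± 3.51 against 102 ± 36.7 TPM). *ANXA3* and the Wnt ligand *WNT2* completed the 7, with log2 fold changes of -1.26 and -3.52. The higher genes were *SFRP4*, another secreted Wnt modulator (69.4 ± 10.4 against 2.67 ± 2.89 TPM), *EFEMP1*, a fibulin (10.6 ± 1.15 against 1.09 ± 0.979 TPM), and the adhesion receptor *ADGRD1* (6.46 ± 0.606 against 0.716 ± 0.719 TPM). Among these 10 genes edgeR adjusted p-values ranged from 3.86e-05 (*SEMA3C*) to 0.0128 (*ADGRD1*), and *SFRP2* lost its call without SF1. *DPT*, *CLEC3B* and *FBN1* were among the 12 genes of the list not past the threshold, and *DPT* ranged from 16 counts in SF1 to 372 in SF3.

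Of 6 complement regulators of the cell surface or its surroundings, 0 were past the threshold in either direction with edgeR's quasi-likelihood test, at a median log2 fold change of -1.01. That median was -0.30 with limma-voom, -0.30 in the fit blocked on clone number and -0.49 without SF1. DESeq2 called 1 gene lower, and edgeR called 1 higher without SF1 and 1 lower without SF3. *CD46* and *CD59*, which with *CD55* protect cells from complement, had 56.8 ± 3.21 and 19 ± 3.06 TPM in IMF and 58.6 ± 13 and 27.8 ± 6.27 TPM in SF, with log2 fold changes of -0.06 (adjusted p = 0.799) and -0.58 (adjusted p = 0.0299). Of 10 relatives and partners of *DPP4* tested, 1 was higher in IMF and 0 were lower, with a median log2 fold change of -0.02 (from -0.07 without IMF3 to 0.05 without SF2). The higher gene was *CAV1*, the caveolar coat protein (246 ± 16.7 against 117 ± 28.3 TPM, log2 fold change 1.06, adjusted p = 0.00168), which lost its call without SF1. *FAP*, the closest relative of *DPP4* and a protease of activated fibroblasts, overlapped between the groups, with 151 to 254 counts in IMF clones and 23, 419, 307 and 103 in SF1 to SF4.

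*THY1* (chromosome 15, 29981019 to 29986913) encodes a small lipid-anchored immunoglobulin-like protein that binds integrins. It had 53.4, 54.1, 49.4 and 48.0 CPM in IMF1 to IMF4 and 220.0, 141, 88.0 and 54.7 CPM in SF1 to SF4. The IMF clones were level, while the SF clones ran from SF1, 4.02-fold above SF4, down to SF4, which was barely above IMF2. The groups overlapped on both scales added after the data were seen. The lowest SF value was 41.4 TPM, against 39.0 to 48.7 TPM in the IMF clones, and 47.2 CPM by total counts alone, against 48.7 to 56.6 CPM. Averaged over 4 clones, IMF had 51.2 ± 2.99 CPM and SF 126 ± 72.1 (± SD), for a log2 difference of -1.30 (standard error 0.37, 95% interval -2.15 to -0.45, edgeR adjusted p = 0.0336, over a range of 0.00335 to 0.956 in its alternatives). The call was lost when IMF1, IMF2, IMF3, IMF4 or SF2 was left out (adjusted p 0.0698, 0.0714, 0.0820, 0.0812 and 0.0706) and without SF1, where the log2 fold change was -0.88 (adjusted p = 0.0493), as well as with limma-voom (0.0524), with total counts alone (0.0516), in a fit blocked by clone number (log2 fold change -1.11, adjusted p = 0.0563) and in glmTreat's test of a change beyond the fold threshold (0.956).

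*ALCAM* (chromosome 1, 49930802 to 50162053) encodes an immunoglobulin-like adhesion molecule of many stem and progenitor cells. It had 36.2, 38.1, 38.2 and 33.3 CPM in IMF1 to IMF4 and 142, 85.1, 89.8 and 134 CPM in SF1 to SF4. The groups were well apart, with the lowest SF clone, SF2, far above the highest IMF clone, IMF3. At 36.5 ± 2.32 CPM against 113 ± 29.4 (mean ± SD over 4 clones), IMF was 3.09-fold lower (log2 fold change -1.63, standard error 0.18, 95% interval -2.04 to -1.22, edgeR adjusted p = 0.00042). *ALCAM* and *CD34* were the marker genes that passed the threshold in all 19 alternative fits.

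Partners of *ALCAM* and *THY1* numbered 11 tested genes, of which 3 were higher and 1 lower in IMF, with a median log2 fold change of -0.05 (from -0.15 without SF3 to 0.04 without SF1), while DESeq2 and limma-voom each called 4 higher and 2 lower. The higher genes were *NCAM1*, a neural and muscle adhesion molecule (35.4 ± 4.22 against 7.85 ± 4.17 TPM), *MCAM*, an adhesion molecule of endothelium and pericytes (14.2 ± 0.867 against 0.732 ± 1.36 TPM), and *L1CAM*, a neural adhesion molecule (2.51 ± 0.339 against 0.968 ± 0.347 TPM). *MCAM* had 104 counts in SF1 and at most 3 in the other SF clones, and it lost its call without IMF3. *ITGB3*, the integrin chain that with *ITGAV* binds *THY1*, was lower (43.9 ± 4.24 against 96.9 ± 26.3 TPM, log2 fold change -1.18, standard error 0.21, adjusted p = 0.00453), and lost its call without SF4, while *ITGAV* itself overlapped at 41.1 ± 2.8 and 42 ± 5.98 TPM. *CD6*, the T cell ligand of *ALCAM*, was not past the threshold (log2 fold change -0.73, adjusted p = 0.249).

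Marker genes of pericytes and smooth muscle differed in both directions. Of 7 such genes tested, 2 were higher (*MCAM*, *MYH11*) and 3 lower (*ACTA2*, *CNN1*, *CSPG4*) in IMF, with a median log2 fold change of 0.36, which was -0.19 without IMF4 and -0.15 with limma-voom. Their sum was 1097, 993, 1063 and 891 TPM in IMF1 to IMF4 and 6059, 2088, 1256 and 3261 TPM in SF1 to SF4. SF1 was highest for the sum, for *THY1* and for *ALCAM*. Next in the sum came SF4, which was the lowest SF clone for *THY1* but the next after SF1 for *ALCAM*. *ACTA2*, smooth muscle actin, made up 84.9% of the sum in IMF and 83.7% in SF, and its groups overlapped. Its call was lost without IMF1, IMF2, IMF3, IMF4, SF1 or SF4, with limma-voom and with the clone number as a block (adjusted p up to 0.522 over its alternatives), and that of *MYH11* without any 1 IMF clone and without SF2, SF3 or SF4. *CNN1*, calponin, had 118 ± 14 TPM in IMF and 467 ± 312 in SF, for a log2 fold change of -2.03 (standard error 0.41, edgeR adjusted p = 0.00827). No gene of the list was at 0 throughout a group, and the part of these genes in the *THY1* and *ALCAM* differences was not tested.

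*NT5E* (chromosome 9, 63953756 to 64026731) encodes the ectonucleotidase that turns extracellular AMP into adenosine. It had 62.8, 67.0, 60.3 and 62.1 CPM in IMF1 to IMF4 and 32.4, 99.7, 61.0 and 88.7 CPM in SF1 to SF4. SF1 was below all IMF clones, SF2 and SF4 were above all of them, and SF3 lay among them. The log2 fold change was -0.16 (standard error 0.30, 95% interval -0.84 to 0.52, edgeR adjusted p = 0.741), so a difference of this size was within the spread of the SF clones.

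Of 10 genes that make, break down, carry or sense extracellular adenosine, 3 were higher in IMF and 0 lower, with a median log2 fold change of 0.02. Without IMF1, 1 gene was called lower, and the median was 0.45 without SF1 and -0.28 without SF3. *ADORA1*, the inhibitory adenosine receptor, had 338, 479, 434 and 302 counts in IMF1 to IMF4 but 0 in every SF clone, at least 112-fold higher. *ADORA2B*, a stimulatory receptor, had 7.54 ± 0.674 TPM in IMF and 3.55 ± 0.68 TPM in SF (log2 fold change 1.05, adjusted p = 0.00337), and *SLC29A1*, the equilibrative nucleoside transporter, had 248 ± 24.3 and 121 ± 25.7 TPM (log2 fold change 1.02, adjusted p = 0.000428). Both lay close to the fold-change threshold: *ADORA2B* lost its call without SF1 or SF3, and *SLC29A1* without IMF3 or SF4 and with either other filter on low counts. *ENTPD1*, which makes the AMP that *NT5E* uses, had 237 counts in SF1 and 32 in SF4 and overlapped between the groups.

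*ENG* (chromosome 11, 98497640 to 98529460) encodes endoglin, a coreceptor for ligands of the transforming growth factor beta family. It had 309, 314, 347 and 326 CPM in IMF1 to IMF4 and 236, 335, 292 and 432 CPM in SF1 to SF4. The SF clones lay on both sides of the IMF clones, with SF1 lowest and SF4 highest. Both means were 324 CPM, with an SD of 16.6 in IMF and 82.8 in SF (n = 4 each), and the log2 fold change was 0.00 (standard error 0.17, 95% interval -0.39 to 0.39, edgeR adjusted p = 0.996), against -0.0043 with DESeq2, -0.0044 with RLE size factors, -0.028 without a filter and -0.025 with a filter of 10 counts in 4 clones.

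In the endoglin receptor complex and its pathway, 14 genes were tested, 1 was higher in IMF and 0 were lower, with a median log2 fold change of -0.23. These counts were 2 higher and 2 lower without SF2, 2 and 0 without SF3, and 1 and 1 without IMF3 or SF4, and the median was -0.01 without SF2 and -0.08 without SF3. The higher gene was *ACVRL1*, the type I receptor with which endoglin acts in endothelium, at 8.46 ± 0.658 TPM in IMF and 1.29 ± 0.637 in SF, for a log2 fold change of 2.68 (standard error 0.30, edgeR adjusted p = 0.000477). *TGFBR1*, *BMPR2*, *TGFB1* and *TGFB2* were below the fold-change threshold, with log2 fold changes of -0.95, -0.78, -0.61 and -0.86 and adjusted p-values from 0.000469 to 0.00881, and in CPM all their SF clones lay above all IMF clones. The same held for *SMAD7* at -0.68 (adjusted p = 0.0316), whereas *SMAD1* ran the other way at 0.56 (adjusted p = 0.0212), with all IMF clones above all SF clones. Such separation was common, since the groups did not overlap in CPM in 32.1% of all genes tested. *ID1*, a target gene of the pathway, had 5890 counts in SF3 against 1154, 1215 and 745 in SF1, SF2 and SF4.

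*CD44* (chromosome 15, 65649552 to 65737464) encodes the main receptor for hyaluronan, a large sugar polymer of the matrix. It had 177, 187, 189 and 172 CPM in IMF1 to IMF4 and 143, 202, 199 and 292 CPM in SF1 to SF4. SF1 was again below every IMF clone, and the other SF clones were above them. The log2 fold change was -0.21 (standard error 0.19, 95% interval -0.64 to 0.23, edgeR adjusted p = 0.476).

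Of 15 hyaluronan and *CD44* partner genes, IMF was higher in 0 and lower in 2, with a median log2 fold change of -0.22, which was -0.04 without SF2 and 0.02 without SF4. DESeq2 and limma-voom also called 0 higher. *HYAL1*, a hyaluronidase, had 2.6 ± 0.214 TPM in IMF and 5.96 ± 0.775 in SF, for a log2 fold change of -1.21 (standard error 0.10, edgeR adjusted p = 0.000104). *SRGN*, serglycin, a proteoglycan that binds *CD44*, had a log2 fold change of -1.53 (adjusted p = 0.0333), but its groups overlapped, its 8 counts were all even, and its call was lost without IMF1, IMF2, IMF3, SF1 or SF4. *CEMIP*, which takes part in breaking down hyaluronan and was the most abundant gene of the list in both groups, had 4520, 70713, 47337 and 32346 counts in SF1 to SF4, beside 39123 to 59159 per IMF clone.

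*CD9* (chromosome 5, 104123604 to 104159285) encodes a tetraspanin, a membrane organizer that gathers integrins and immunoglobulin-like partners. It had 171, 174, 157 and 164 CPM in IMF1 to IMF4 and 83.1, 203, 193 and 152 CPM in SF1 to SF4. SF1 and SF4 lay below every IMF clone, and SF2 and SF3 above. The log2 fold change was 0.08 (standard error 0.24, 95% interval -0.48 to 0.64, edgeR adjusted p = 0.854).

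Among other tetraspanins and their partners, genes past the threshold were found in both directions. Of 12 tested, 5 were higher and 2 lower in IMF, with a median log2 fold change of 0.13 (from 0.02 without SF3 to 0.27 without SF4). The higher genes were *CD82* (17.5 ± 3 against 2.67 ± 1.86 TPM), *TSPAN9* (14.8 ± 1.68 against 5.6 ± 1.99 TPM), *TSPAN15* (6.23 ± 0.617 against 0.926 ± 0.478 TPM), *CD37* (5.7 ± 0.865 against 1.77 ± 1.28 TPM), all tetraspanins, and the laminin-binding integrin chain *ITGA6* (3.13 ± 0.273 against 0.722 ± 0.433 TPM). The lower genes were *PTGFRN* (15.6 ± 1.13 against 40.2 ± 10.5 TPM) and *IGSF8* (8.24 ± 0.785 against 18.3 ± 3.79 TPM), the immunoglobulin-like proteins that bind *CD9* and *CD81* directly. Adjusted p-values of these 7 genes in edgeR's test ran from 0.000416 (*PTGFRN*) to 0.0266 (*CD37*), and *CD37* lost its call without any 1 IMF clone and without SF2 or SF3. *CD63* was the most abundant gene of the list in both groups (842 ± 88.3 and 854 ± 188 TPM) and overlapped, and *CD81*, the nearest relative of *CD9*, had 153 ± 10.3 and 247 ± 29.9 TPM, a log2 fold change of -0.71 that was under the fold-change threshold (adjusted p = 0.00184).

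**Figure D2:**
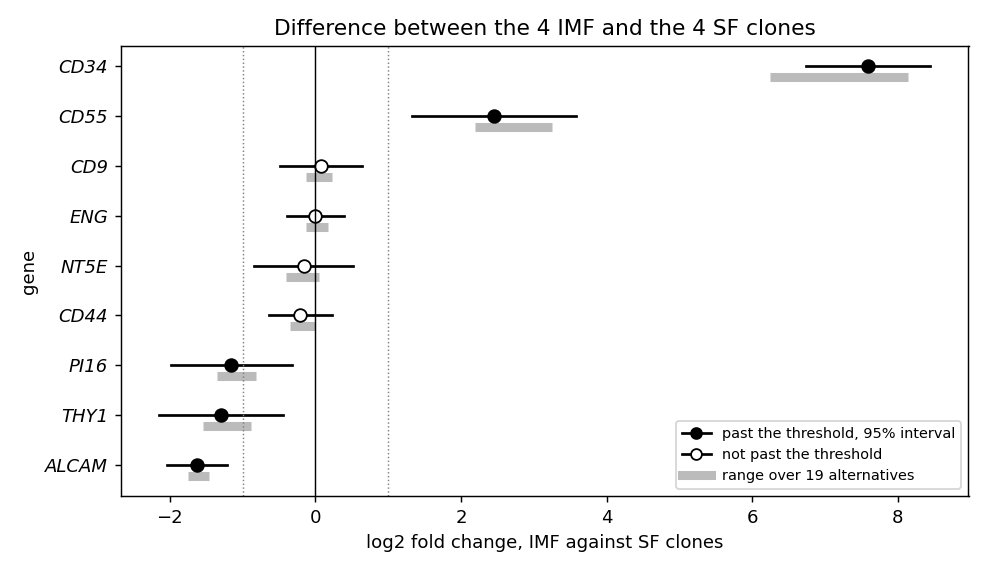
Log2 fold change of IMF against SF clones (horizontal axis) for 9 surface marker genes (vertical axis), with points for the edgeR estimate, black lines for its 95% interval, filled points for genes past the threshold and grey bars for the range over 19 alternative fits. *CD34* and *CD55* lie to the right at 7.59 and 2.45, *PI16*, *THY1* and *ALCAM* to the left at -1.16, -1.30 and -1.63, and the intervals of *CD9*, *ENG*, *NT5E* and *CD44* include 0; dotted lines mark a log2 fold change of -1 and 1.

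Compared per gene length, *CD9* was the most abundant of the 9 genes in the IMF clones at 232 ± 15.5 TPM, followed by *ENG* at 197 ± 20.3 TPM, and the clones' ranges of these neighbors overlapped. Below them came *CD44* (99.6 ± 9.38 TPM), *THY1* (44.4 ± 4.07 TPM), *NT5E* (29.6 ± 1.60 TPM), *ALCAM* (12.4 ± 1.40 TPM), *CD34* (7.14 ± 0.790 TPM), *CD55* (5.73 ± 0.167 TPM) and *PI16* (0.333 ± 0.0488 TPM), with no overlap between any of these neighbors. In the SF clones the order was *CD9* (219.6 ± 88.0 TPM), *ENG* (192 ± 40.6 TPM), *CD44* (112 ± 26.5 TPM), *THY1* (109 ± 62.6 TPM), *ALCAM* (37.3 ± 7.49 TPM) and *NT5E* (32.7 ± 14.8 TPM), where each neighbor overlapped the next. *CD55* (1.05 ± 0.953 TPM) and *PI16* (0.728 ± 0.323 TPM) overlapped each other, lay below *NT5E* without overlap, and lay above *CD34* (0.0332 ± 0.0279 TPM). Among all genes tested, *CD9* ranked above 97.9% by mean TPM in IMF and 97.7% in SF, *ENG* above 97.6% and 97.4%, and *CD34* above 55.5% and 2.67%. By CPM, which does not divide by gene length, *ENG* and *CD44* came before *CD9* in both groups.

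The stromal triad of *NT5E*, *THY1* and *ENG* summed to 277, 253, 301 and 252 TPM in IMF1 to IMF4 and to 338, 400.2, 292 and 306 TPM in SF1 to SF4. All 3 genes were thus present in every clone. In SF1 the sum was made up mostly of *THY1* (185 TPM, beside 139 TPM of *ENG* and 14.7 TPM of *NT5E*), and in SF4 mostly of *ENG* (228 TPM, beside 41.4 TPM of *THY1* and 36.3 TPM of *NT5E*). The sum in IMF3, the highest of its group, lay above SF3, so the groups overlapped.

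The SF clones varied more among themselves than the IMF clones did for every marker gene compared. The coefficient of variation of CPM was 5.83% in IMF and 57.3% in SF for *THY1*, 4.51% and 42.8% for *NT5E*, and 4.71% and 34.5% for *CD9*. For *CD44* it was 4.26% and 29.5%, for *ALCAM* 6.36% and 26.1%, and for *ENG* 5.11% and 25.6%. Among the 10948 genes that averaged 100 or more counts in IMF and in SF, the median was 6.60% in IMF and 13.4% in SF, and 74.7% of the genes varied more in SF. Among these genes, the SF variation of *THY1* exceeded that of 96.9%, of *NT5E* 93.5% and of *ENG* 80.6%. Between the extreme SF clones, *CD55* differed 6.07-fold, *THY1* 4.02-fold and *NT5E* 3.08-fold.

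No SF clone was high or low throughout. With *CD34* left aside, SF1 was the highest SF clone for *THY1*, *PI16* and *ALCAM*, and the lowest for *NT5E*, *CD44*, *ENG* and *CD9*. SF4 was the highest for *CD44* and *ENG* and the lowest for *THY1* and *CD55*. SF2 was the highest for *NT5E* and *CD9* and the lowest for *PI16* and *ALCAM*, and SF3 was the highest for *CD55* alone.

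Beyond the 9 genes, 21 other surface proteins of stromal cells were tested, of which 4 were higher and 4 lower in IMF, with a median log2 fold change of -0.08. Without SF3 the counts were 4 higher and 7 lower, with a median of -0.15. The lower genes were *LRP1*, an endocytic receptor (250.0 ± 23.9 against 586 ± 110 TPM), *CSPG4*, the NG2 proteoglycan of pericytes (13.3 ± 1.41 against 42.2 ± 14.4 TPM), *ANPEP*, an aminopeptidase (1.5 ± 0.203 against 9.07 ± 2.79 TPM), and *NGFR*, a neurotrophin receptor (2.56 ± 0.27 against 7.87 ± 2.56 TPM). The higher genes were *PDPN*, podoplanin (52 ± 8.81 against 0.337 ± 0.506 TPM), *CD36*, a fatty acid transporter (2.31 ± 0.185 against 0.32 ± 0.176 TPM), *MCAM* and *L1CAM*. *PDPN* counts were 287 to 469 per IMF clone, beside 0, 6, 2 and 0 in SF1 to SF4 (log2 fold change 7.25, standard error 0.58, edgeR adjusted p = 7.78e-05). *ITGB1*, the shared beta chain of many integrins, had 370.1 ± 24.5 TPM in the IMF clones and 495 ± 57.7 in the SF clones, and its log2 fold change of -0.45 was under the fold-change threshold.

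Of 8 preadipocyte genes, IMF was higher in 0 and lower in 1, with a median log2 fold change of -0.16. Without SF1, *FGF10* was also called higher and the median was 0.02, and without SF3 it was -0.39. *PDGFRA*, the receptor by which adipose progenitors are commonly sorted, had 37.5 ± 3.2 TPM in IMF and 26.6 ± 6.78 TPM in SF. All its IMF clones lay above all SF clones in CPM, where 32.1% of all genes tested had groups that did not overlap. The log2 fold change of *PDGFRA* was 0.49 (standard error 0.12, edgeR adjusted p = 0.0214), under the fold-change threshold. *PDGFRB* had 59.1 ± 2.29 and 65.7 ± 19.4 TPM, and both receptors were present in every clone. *DLK1* was not, with 66, 0, 4 and 38 counts in IMF1 to IMF4. In SF1 to SF4 *DLK1* had 22, 6, 16 and 12 counts, and its counts were all even. *FGF10* had 109 to 161 counts per IMF clone, beside 164, 14, 18 and 62 in SF1 to SF4. The lower gene was *PPARG*, the regulator of adipocyte differentiation (log2 fold change -1.35, standard error 0.23, edgeR adjusted p = 0.00365). Of 4 adipocyte genes tested, *FABP4*, a fatty acid carrier also found in endothelium, was higher in IMF (25.7 ± 4.94 against 0.448 ± 0.518 TPM, log2 fold change 5.70), and the other 3 were not past the threshold (median of the 4 genes 0.16, from -0.16 without SF2 to 0.72 without SF4). Their sum was 37.6, 34.0, 31.0 and 27.2 TPM in IMF1 to IMF4, where *FABP4* was the most abundant, and 8.45, 4.25, 10.4 and 6.14 TPM in SF1 to SF4, where *CEBPA* was. Of 4 Schwann cell genes 1 was higher (*ERBB3*, with a ratio of 25.9 and a counting interval of 12.3 to 65.1), and of 4 epithelial and mesothelial genes 1 was higher (*CDH1*, at 0 in every SF clone and at least 110-fold higher in IMF), while *KRT19*, the most abundant of the latter list, overlapped. The median log2 fold changes of these lists were 0.03 (from -0.30 without IMF4 to 0.21 without SF1) and 0.08 (from -0.15 without IMF3 to 0.21 without SF4).

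For each of the 5 marker genes past the threshold, the 3 named genes whose log2 CPM was most alike across the 8 clones were found among 13022 genes, with Pearson's r as a description. For *CD34* these were *ALPK3* (0.999), *SOX8* (0.998) and *CHL1* (0.998), and for *ALCAM* they were *PPP2R3A* (0.998), *TMEM47* (0.996) and *HSPB1* (0.995). Those most like *CD55* were *ESR1* (0.996), *PLCB4* (0.994) and *RCC2* (0.994). *THY1* was most like *ZNF18* (0.993), *EME2* (0.987) and *NTNG2* (0.983), and *PI16* was most like *CRISPLD2* (0.986), *CHSY3* (0.982) and *TTI2* (0.981).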

How the data were processed

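RNA-seq of 8 clones, 4 IMF and 4 SF, was grouped by the sample labels. The authors deposited the counts of reads per gene and clone as whole numbers without normalization, although their methods speak of TPM. Per the submitters' processing notes they used Trimmomatic 0.39, STAR 2.7.11a and featureCounts 2.0.2; their methods name HISAT2 as aligner, with ARS-UCD2.0 as genome, and the annotation release is not given in the sources used here. The methods describe a kit that does not keep strand and the labels one that does, so reads of genes that overlap on opposite strands may be shared. The deposited gene length, another column of the table, served only for TPM. The deposited columns of group means and of the authors' own DESeq2 comparison (mean, fold change, its error, statistic, p-value and call) were not used. The entry that names no gene held 0.0148% to 0.0209% of a clone's counts and was left out.

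The 18339 of 18871 genes whose counts added up to 20 or more went into edgeR 4.0.16 under R 4.3.3 (TMM, quasi-likelihood test, Benjamini-Hochberg adjustment over all of them). Standard errors were derived from the log2 fold change and its F statistic. At this depth 3 counts equal 0.0981 to 0.165 CPM; such limits and counting intervals cover counting error only. Between any 2 clones, counts differed by more than sampling noise (3.20 to 6.21 times the expected median chi-square within IMF, 6.66 to 13.7 within SF). That noise is of counting only, so the comparison cannot tell separate clones from repeats of the same clone. By the labels, no clone was counted as a repeat. p-values measure the spread between clones. Symbols and coordinates came from RefSeq genes on ARS-UCD2.0, where 14201 of 18871 IDs and all 9 marker genes were found. Of 15625 genes that averaged 20 or more counts, 465 had 8 even counts.

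The marker genes and gene lists were chosen with earlier results of these data known. Counts of a list are of its genes tested, and several lists held more genes that were not analysed. Tested were 9 of 11 satellite cell and myoblast genes, 4 of 8 adipocyte genes and 7 of 10 pericyte and smooth muscle genes. From each list the text names the genes past the threshold, at most 5 per direction by mean TPM in the higher group, and other genes of the lists were named after their values were seen; some genes are on more than 1 list. Alternatives were DESeq2 1.42.0, limma-voom (limma 3.58.1), RLE, upper-quartile and total-count scaling, other filters, a robust fit, a prior count of 2, glmTreat, blocking on clone number, and fits that dropped 1 clone each; the overlap of groups on the TPM and total-count scales was added after seeing the data.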

Additional observations from a re-analysis of the deposited data

Results flagged for a closer look

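Dixon's ratio, the gap between an extreme clone and its neighbor divided by the range of the group, was computed for 9 genes in 2 groups of 4 clones. It passed the critical value for 4 clones in 1 of these 18 groups, *CD55* in the SF clones, where SF3 had 7.02 CPM against 2.00, 2.05 and 1.16 CPM in SF1, SF2 and SF4 (ratio 0.847). Chance gives about 1 in 20 groups.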

How the results depend on the processing

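Of 19 alternative fits, *CD34* (log2 fold change 6.25 to 8.13) and *ALCAM* (-1.76 to -1.47) stayed past the threshold in all, and *CD55* (2.19 to 3.25) in 18; *THY1* and *PI16* each lost the call in 10 and kept their direction in all 19. Marker genes past the threshold numbered 3 with limma-voom, 3 with total counts alone, 2 in glmTreat's test of a change beyond the fold threshold, and from 3 to 5 with 1 clone left out, against 5. Genes past the threshold numbered 631 in glmTreat's test of a change beyond the fold threshold and from 1332 to 1643 with 1 clone left out, against 1618, and 1996 with DESeq2 (48.9% higher); the stricter hypothesis of the first lowers its count by construction, and for the others the cause was not tested.

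The clone number was not taken as a pairing, since no source ties it to an animal. Deviations from the group means correlated at 0.0395 to 0.282 (mean 0.123) between same-numbered clones (4 pairs, 11719 genes) and at -0.182 to 0.189 (mean -0.0418) between others. Of 8 clones, 5 correlated best with their own number, and IMF2, SF2 and SF3 did not, so the data leave undecided whether some numbers mark shared animals. With the number as a replicate block, 1489 genes and 3 marker genes passed, without *THY1* (log2 fold change -1.11, adjusted p = 0.0563) and *PI16* (-1.05, adjusted p = 0.140), the calls of *DES* and *ACTA2* were lost, and *PTPRC* was past the threshold.

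Log2 fold changes near 0 changed sign. That of *ENG* was -0.0043 with DESeq2, -0.0044 with RLE size factors, -0.028 without a filter and -0.025 with at least 10 counts in at least 4 clones, and ran from -0.124 to 0.172 with 1 clone left out. With 1 clone left out, *CD44* ran from -0.35 to 9.3e-05, *CD9* from -0.13 to 0.22 and *NT5E* from -0.40 to 0.055. None of these was past the threshold in any fit, and the cause was not tested. By CPM in place of TPM, *CD9* ranked 3 in place of 1 in both groups. On the TPM and total-count scales, 4 marker genes in place of 5 had groups that did not overlap. Depth limits *CD34* in SF (0 to 2 counts a clone) and *PI16* (19 to 81 counts).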
